A study of Mus musculus with 6 samples.

Results

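Mesenchymal condensation of the mouse hind limb at 12.5 days post coitum (dpc) was compared with the pre-condensed mesenchyme that precedes it at 11.5 dpc. The comparison is carried by 2 of the 6 arrays of the series, chosen by their titles: they hybridised the same pair of RNA pools with the dyes exchanged. The 12.5 dpc pool held microdissected condensation tissue from 3 hind limbs and the 11.5 dpc pool held pre-condensed mesenchyme from 4 hind limbs, in each case of Swiss white embryos with no treatment or mutation. Both pools passed through 2 rounds of RNA amplification before labelling. Each time point is 1 pool, so the arrays repeat a measurement of the same RNA, no test of the difference between stages was possible, and the spread given below is technical.

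Limb cartilage begins as loose mesenchyme. Cells of the core draw together into condensations, in which adhesion molecules such as N-cadherin and NCAM and the transcription factor Sox9 act, and these then differentiate into chondrocytes that deposit collagens, aggrecan and their partners. Cells at the edge of a condensation form the perichondrium, and signals of the BMP, FGF, Wnt and hedgehog families set where and when this happens.

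Every value below is a log2 ratio of 12.5 dpc over 11.5 dpc, so that 1 is a doubling and a negative number is lower at 12.5 dpc, relative to the median spot of the array. The array with 12.5 dpc in Cy5 is called the Cy5 array and the array with 12.5 dpc in Cy3 the Cy3 array. Where a pair of values is given without names, the Cy5 array comes first, and a value with ± is the mean of the pair with the distance of either array from it. A gene was called higher or lower when it differed at least 3-fold in one direction on both arrays. The other 4 arrays of the series, which set the 13.5 dpc pool against each of these pools, gave the same ratio by a path through 13.5 dpc, from different hybridisations of the same RNA.

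Values on both arrays were present for 18774 genes of the 19087 with a symbol. Above 0 on both arrays lay 6467 genes (34.4%) and below 0 on both lay 7010 (37.3%), so that 71.8% had a single direction. The call took in 80 genes that were higher at 12.5 dpc (0.426%) and 27 that were lower (0.144%). Counts within gene lists below are to be read beside these shares of all genes. In a bulk pool, a lower ratio from fewer cells of a type and one from less RNA per cell cannot be told apart. The arrays correlated with r = 0.49 over the genes of these 2 hybridisations, and the median distance of an array from the mean of the pair was 0.18, with 0.73 at the 95th percentile. That distance had a median of 0.21 for the genes called higher and 0.08 for those called lower, as the plot of one array against the other shows.

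**Figure D1:**
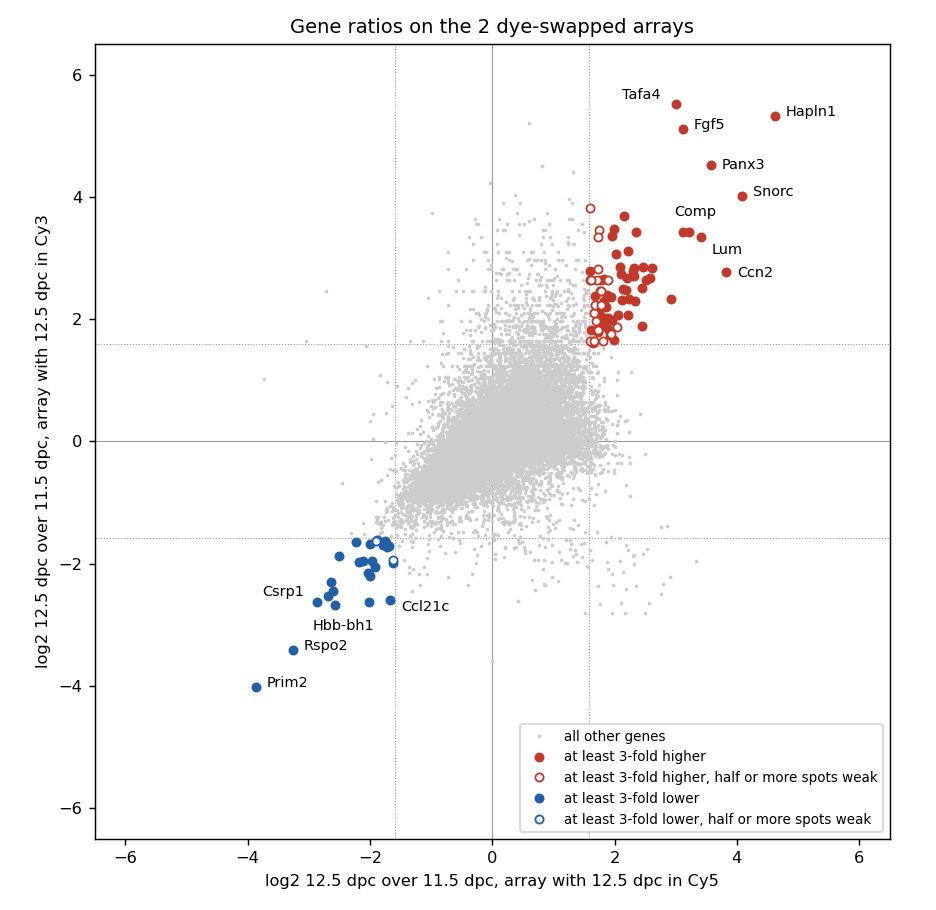
Log2 ratio of 12.5 dpc over 11.5 dpc of 18774 genes on the array with 12.5 dpc in Cy5 (horizontal) and on the array with 12.5 dpc in Cy3 (vertical); dotted lines mark 3-fold, and open circles are called genes with 50% or more of their spots marked weak. The 80 genes called higher lie at the upper right and the 27 called lower at the lower left, while 32 genes pass 3-fold with opposite signs, mostly at the lower right.

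Many deposited values sit exactly on the logarithm of a ratio of small whole numbers. A spot with such values on at least 2 of the 6 arrays was marked weak (15135 of 45220 spots), as a stand-in for low signal, and a gene with 50% or more of its spots weak is called a weak gene here. Of the 80 genes called higher 21 were weak, and of the 27 called lower 3 were weak. The weak genes as a whole lay higher than the rest, with a median of 0.40 over 5769 weak genes against -0.15 over the 13005 others. A weak gene near 0.40 thus stood at the level of its class. When each array was centred on its spots not marked weak, the whole scale moved by 0.17 and the calls became 135 higher and 15 lower, and without any centring they became 478 and 7. The share of calls that were higher was thus 74.8% as reported, 90.0% with that centring and 98.6% without centring.

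Cartilage matrix genes made up the leading group of the genes that were higher. Of 30 measured members of a list of cartilage matrix genes, 11 were called higher and 0 lower, 24 were above 0 on both arrays and 0 below, and the list median was 0.94, beside 0.01 over all genes. Hapln1, the link protein that holds aggrecan to hyaluronan, had the largest ratio of all called genes, with 4.63 and 5.32, a 31.4-fold difference, and 4.61 by the path through 13.5 dpc. Its 2 spots had means of 4.83 and 5.12. Snorc, a small transmembrane proteoglycan of cartilage, had 4.09 and 4.01. Comp, a pentameric matrix protein of the thrombospondin family, had 3.21 and 3.43. These arrays lay close together, but the other hybridisations of the same pools gave only 1.09 for Snorc and 0.37 for Comp, so the size of these differences depended on which arrays were read.

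Epyc, a small leucine-rich proteoglycan of epiphyseal cartilage, had 2.16 on the Cy5 array and 3.69 on the Cy3 array, and its 2 spots disagreed, with means of 1.49 and 4.36. Mia, a secreted protein of chondrocytes, had 2.92 and 2.33. The matrilins, which bridge collagen fibrils and proteoglycans, were graded: Matn1 had 2.30 and 2.79, Matn3 had 1.95 and 2.37, Matn2 had 0.91 and 1.27, and Matn4 had 0.83 and 0.55. Acan, the large aggregating proteoglycan, had 2.21 and 2.07. Trpv4, a calcium channel of chondrocytes, had 2.24 and 2.33, the secreted factor Cytl1 had 2.13 and 2.31, and Chad, a leucine-rich protein that binds integrins, had 1.62 and 1.83. All of these passed 3-fold except Matn2 and Matn4. S100b, a calcium-binding protein, missed it on the Cy5 array only, with 1.48 and 2.65. Its Cy3 value lies on a ratio of small whole numbers, although its spot was not marked weak.

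Cartilage collagens of types II, IX and XI were not among the called genes. Col2a1, the main cartilage collagen, had 0.94 on the Cy5 array and -0.06 on the Cy3 array over 12 spots. The arrays thus differed in sign, with a mean of 0.44 ± 0.50, while the means of its spots ran from 0.36 to 0.75 and the path through 13.5 dpc gave 0.31. Col9a1 had -0.10 and 0.13 and Col9a3 had -0.11 and 0.48, both members of the collagen that coats type II fibrils. Col11a1 and Col11a2, which set fibril diameter, had 0.64 and 1.18 and 0.64 and 1.22, and the 4 spots of Col11a1 had means from -0.46 to 2.31. None of these reached 3-fold on either array. In the next interval, 13.5 over 12.5 dpc, which shares the 12.5 dpc pool, Col9a1 had 1.74 and 1.89, a mean ratio of 1.82. Col2a1 had a mean of 1.99 there, but its arrays lay far apart. They gave 3.22 with 13.5 dpc in Cy5 and 0.76 with 13.5 dpc in Cy3.

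**Figure D2:**
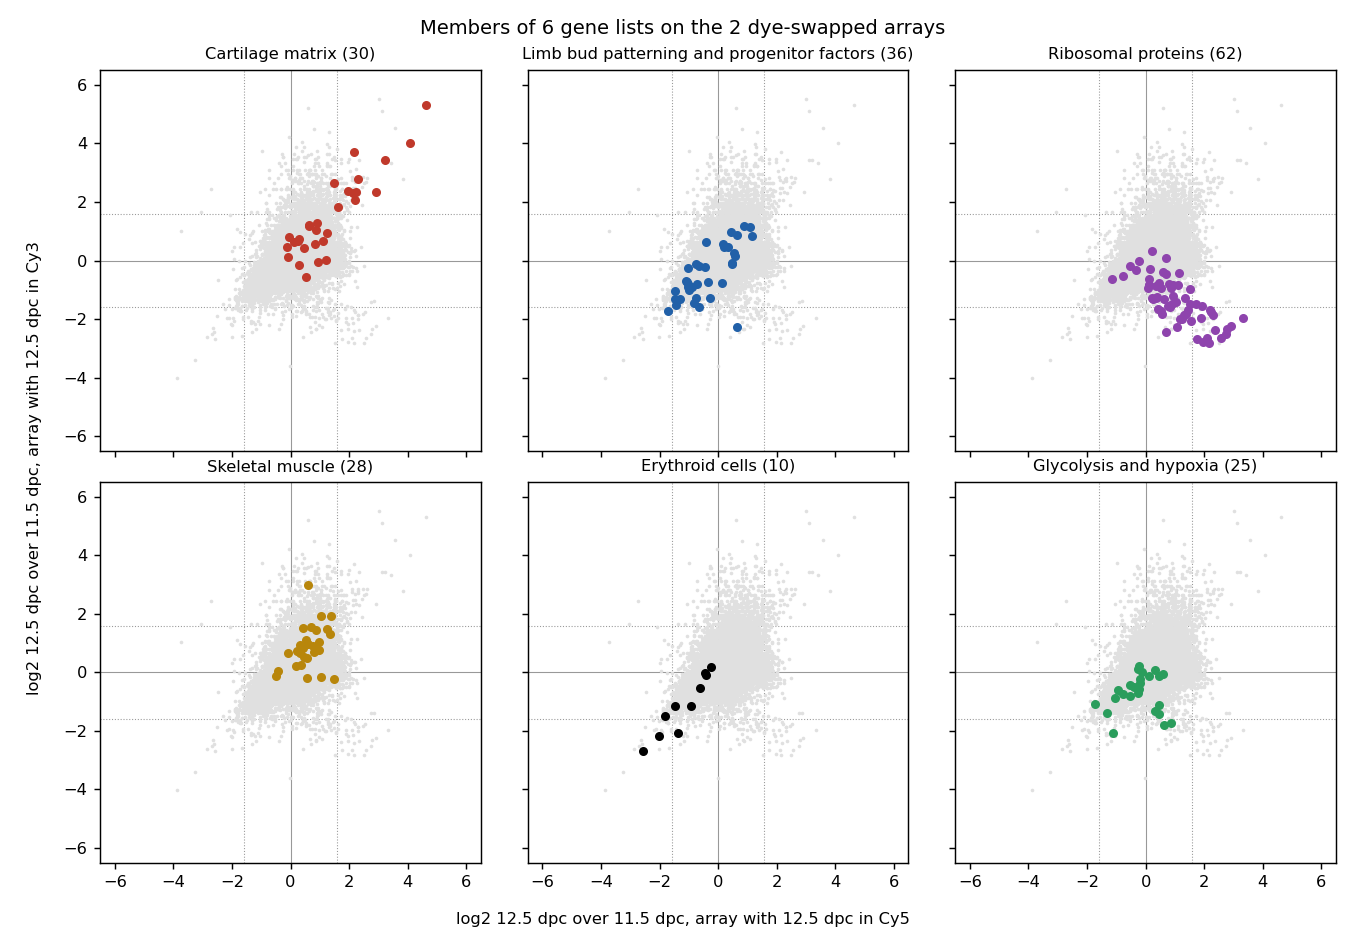
Log2 ratios of 12.5 dpc over 11.5 dpc on the array with 12.5 dpc in Cy5 (horizontal) and in Cy3 (vertical) for the members of 6 lists, with all genes in grey and dotted lines at 3-fold. The cartilage matrix genes run along the diagonal to the upper right, the erythroid genes to the lower left, and 55 of 62 ribosomal protein genes have opposite signs on the arrays.

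Promoters of 5 called genes are shown so that the letters counted below can be read in place: each is 300 bases around a start and holds at least 1 searched motif. RefSeq promoters of build GRCm38.p6 (250 bases before and 50 after a start) were given for 63 of the 80 genes called higher and 21 of the 27 called lower. Capitals mark TATAAA, the TATA box, TGTGGT, a core letter string of Runx sites, and AACAAT, a Sox letter string, on either strand. Hapln1 (chr13:89540386-89540685, plus strand) and Matn1 (chr4:130944135-130944434, plus strand) each held TGTGGT, with its first base 160 and 134 bases before the start. Chad (chr11:94564797-94565096, plus strand) and Foxa3 (chr7:19023490-19023789, minus strand) held TATAAA, 28 and 36 bases before the start. Hba-x (chr11:32276350-32276649, plus strand), a globin gene that was lower, held TATAAA 28 bases before the start and AACAAT on the opposite strand, where it reads ATTGTT in the letters printed.
Hapln1: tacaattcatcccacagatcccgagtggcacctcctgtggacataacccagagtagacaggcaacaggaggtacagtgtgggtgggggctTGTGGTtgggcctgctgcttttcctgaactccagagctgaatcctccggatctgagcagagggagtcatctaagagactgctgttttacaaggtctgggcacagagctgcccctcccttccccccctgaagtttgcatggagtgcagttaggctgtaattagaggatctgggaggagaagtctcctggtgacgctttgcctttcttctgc
Matn1: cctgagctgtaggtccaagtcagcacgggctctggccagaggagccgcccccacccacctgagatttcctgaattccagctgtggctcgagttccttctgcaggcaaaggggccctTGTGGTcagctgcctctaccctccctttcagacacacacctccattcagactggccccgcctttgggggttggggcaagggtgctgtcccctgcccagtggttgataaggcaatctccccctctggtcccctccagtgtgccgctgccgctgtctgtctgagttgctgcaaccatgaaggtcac
Chad: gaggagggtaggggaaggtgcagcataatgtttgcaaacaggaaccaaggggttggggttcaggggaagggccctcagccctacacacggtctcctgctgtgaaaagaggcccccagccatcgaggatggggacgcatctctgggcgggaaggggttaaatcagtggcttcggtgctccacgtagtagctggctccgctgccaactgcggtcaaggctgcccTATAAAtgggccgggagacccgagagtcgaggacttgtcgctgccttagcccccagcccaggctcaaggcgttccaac
Foxa3: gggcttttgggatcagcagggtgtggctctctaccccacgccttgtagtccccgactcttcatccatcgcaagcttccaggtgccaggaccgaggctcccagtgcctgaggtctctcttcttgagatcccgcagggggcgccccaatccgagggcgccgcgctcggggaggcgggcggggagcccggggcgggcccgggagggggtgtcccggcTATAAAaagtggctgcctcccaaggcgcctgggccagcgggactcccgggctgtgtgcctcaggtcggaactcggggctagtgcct
Hba-x: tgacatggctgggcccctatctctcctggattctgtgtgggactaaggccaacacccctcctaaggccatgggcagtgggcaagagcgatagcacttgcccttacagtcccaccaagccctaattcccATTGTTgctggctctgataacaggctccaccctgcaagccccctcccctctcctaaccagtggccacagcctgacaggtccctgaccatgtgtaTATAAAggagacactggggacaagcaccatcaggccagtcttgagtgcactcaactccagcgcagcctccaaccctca

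Over all promoters, TATAAA was present in 20 of 77 promoters of the genes called higher (26%), in 4 of 28 of those called lower (14.3%) and in 11.3% of the 18624 promoters of all measured genes. Without the weak genes it was in 14 of 54 promoters of the genes called higher (25.9%). TGTGGT was in 20.8% of the promoters of genes called higher, 10.7% of those called lower and 13.9% of all, but without the weak genes its share among those called higher was 14.8%, close to that of all genes. The Sox letter strings AACAAT or ACAAAG were in 23.4%, 28.6% and 23% in the same order, and ATCAAAG, a Tcf and Lef string, was in 7.79%, 3.57% and 3.12%. Without the weak genes the shares among genes called higher were 20.4% for the Sox strings and 7.41% for ATCAAAG. All strings were searched on both strands, and although ATCAAAG and ACAAAG end alike, no single site can be counted for both. These shares are counts of letters in a short window, taken per promoter and not per gene, and were not tested. Where promoters of the same gene overlap, as those of Tent5a do, a site such as its TATAAA was counted in each.

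The list of chondrocyte maturation and mineralisation genes held 5 called genes. Of 18 measured members, 5 were called higher and 0 lower, 12 were above and 3 below 0 on both arrays, and the median was 0.66. Panx3, a pannexin channel of prehypertrophic chondrocytes and osteoblasts, had 3.58 and 4.52. Ihh, the hedgehog ligand made by prehypertrophic chondrocytes, had 2.31 and 2.71 over 11 spots. Phex, an endopeptidase of mineralising cells, had 2.10 and 2.85. Alpl, the tissue alkaline phosphatase, had 1.78 and 2.63. Smpd3, a neutral sphingomyelinase needed for mineralisation, had 1.90 and 2.02, but its 3 spots had means from 0.71 to 3.35. Ibsp, a sialoprotein of mineralised matrix, and Sp7, the osteoblast factor osterix, were not called: Ibsp had 1.31 and 2.35, below 3-fold on the Cy5 array only, and Sp7 had 1.34 and 1.17, below it on both. Col10a1, the collagen of hypertrophic chondrocytes, had 0.43 and 0.56.

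Matrix genes of fibrous tissue and perichondrium were mixed. Of 23 measured members 2 were called higher and 0 lower, and the median was 0.32. Both that passed are small leucine-rich proteoglycans: Lum, which organises collagen fibrils, had 3.42 and 3.34, and Aspn had 1.97 and 3.36. Ogn, of the same family, had 1.18 and 1.86, and Lox, the enzyme that cross-links collagen, had 1.14 and 1.87. Dcn, another member of the family, had -0.08 and 0.28, and the bone and tendon collagen Col1a1 had 1.10 and 1.14 over 12 spots. Outside the lists, Col8a2, a short-chain collagen, had 2.62 and 2.83, and Podnl1, a leucine-rich matrix protein, had 2.47 and 2.85.

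Several secreted signals were among the largest differences. Tafa4, a small secreted protein related to chemokines, had 3.01 and 5.52, and Fgf5, an FGF ligand, had 3.12 and 5.10. For both, the arrays differed by about 2 log2 units or more while each passed 3-fold, and the path through 13.5 dpc gave 3.86 and 4.68. Ccn2, a matricellular factor that binds growth factors, had 3.83 and 2.77 and was the called member of the 4 measured CCN genes, while Ccn4 had 0.27 and 0.76. Of the 25 measured BMP pathway genes none was called, where 0.426% of all genes were called higher and 0.144% lower. On both arrays 11 were above and 12 below 0, beside 34.4% and 37.3% of all genes. The list median was -0.04, or 0.50 without centring. Bmp7, a ligand, had 1.37 and 1.73 over 11 spots, whereas Grem1, a secreted BMP antagonist, had -1.24 and -1.44 and Bmpr1b, a receptor of condensing cells, had -1.43 and -0.76. Gdf5, the ligand of joints and condensations, had -0.03 and 0.32, within the spread of the arrays, and Gdf6, its relative, had 1.26 and 2.22.

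Wnt genes went in both directions, with 13 of 30 above and 7 below 0 on both arrays, beside 34.4% and 37.3% of all genes. For 10 of the 30 the arrays differed in sign, and 6 were weak. Frzb, a secreted Wnt antagonist, was called lower with -1.96 and -1.96. Rspo2, which amplifies Wnt signals at the receptor, was called lower with -3.26 and -3.41, a 10.1-fold difference, and the other arrays gave -3.57. Among the genes that were not called, the antagonists Dkk1 and Sfrp2 had -1.36 and -1.15 and -1.11 and -1.10, and the ligand Wnt11 had -1.62 and -1.07. The ligand Wnt4, by contrast, had 1.36 and 2.25. In the hedgehog pathway 1 of 14 measured genes was called, Ihh. Ptch1, the receptor whose own transcription follows hedgehog signalling, had 0.99 and 0.93 over 13 spots, with spot means from -0.25 to 1.76. In the same list Hhip had 0.88 and 1.41, with 1 of its 2 spots weak, but Gli1 had -0.20 and 0.26 over 10 spots. Gas1, a co-receptor, had -1.19 and -1.16.

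Transcription factors of the chondrogenic programme moved little as a group. Of 19 measured members 1 was called higher, Foxa3, a forkhead factor, with 2.21 and 2.67. On both arrays 11 were above and 8 below 0, beside 34.4% and 37.3% of all genes. Nkx3-2, a repressor that favours cartilage, had 1.50 and 2.40 and Foxc2, a forkhead factor of mesenchyme, had 1.39 and 1.51. Sox9 itself had -0.37 and -0.80 over 13 spots whose means ran from -0.91 to 0.76, and Sox6, its partner, had 0.09 and 0.05. Trps1, a zinc finger repressor of the growth plate and joints, had -1.48 and -1.64, close to the threshold on the Cy5 array and past it on the Cy3 array.

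The adhesion and early matrix genes of condensation showed no common direction. None of the 18 measured was called, where 0.426% of all genes were called higher and 0.144% lower. On both arrays 6 were above and 9 below 0, beside 34.4% and 37.3% of all genes. The median was -0.06, or 0.48 without centring. Fn1, fibronectin, had -1.27 and -1.13 over 12 spots, whose means ran from -1.68 to 0.85. Vcan, the proteoglycan of precartilage, had -1.24 and -0.90, but its 4 spots had means from -3.30 to 0.11. Epha4 and Epha7, receptors for ephrins, had -0.91 and -1.16 and -1.21 and -0.84. Cdh2, N-cadherin, had -0.07 and -0.34, but 3 of its 4 spots were weak and its spot means ran from -1.40 to 0.69. The path through 13.5 dpc gave -0.61 for Cdh2, so its value depended on the spots and arrays read. Ncam1 had -0.14 and 0.14 over 17 spots. The proteoglycan Cspg4 had 1.42 and 0.79, and Has2, which makes hyaluronan, had 0.60 and 1.17. Ratios carry no level of their own, so whether these markers of the labelled tissue were present in either pool cannot be read from them.

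**Figure D3:**
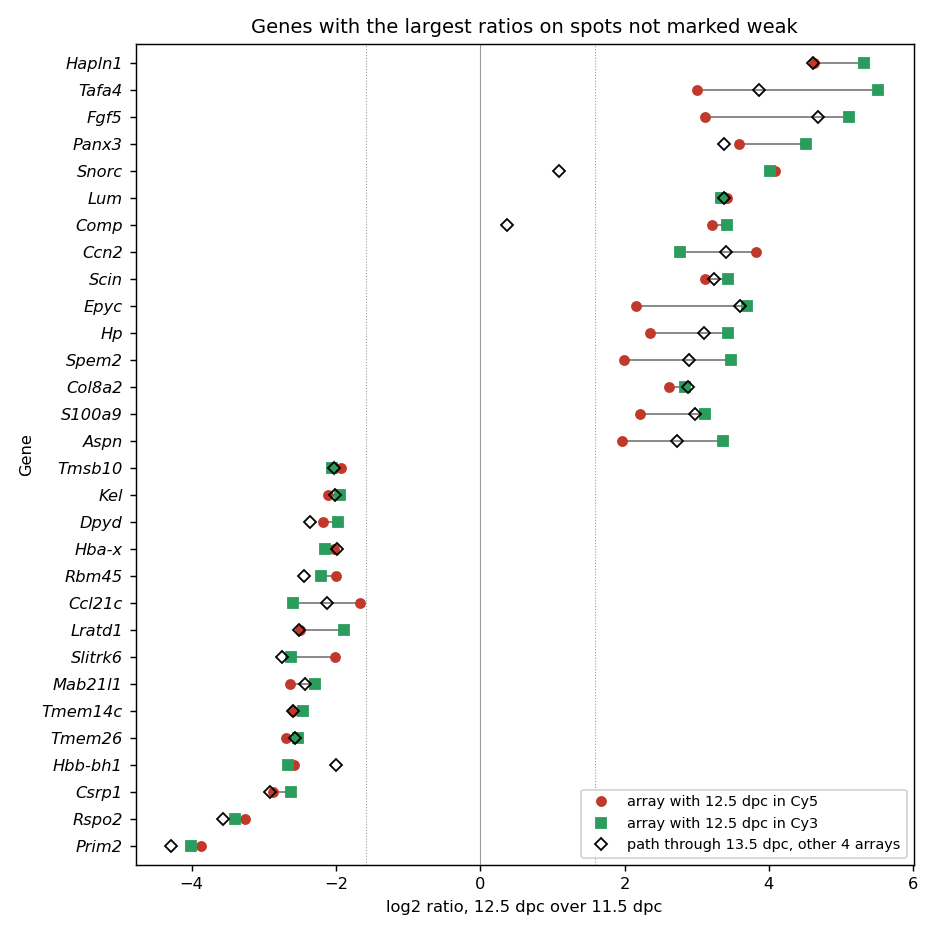
Log2 ratio of 12.5 dpc over 11.5 dpc for the 15 largest differences in each direction among called genes that were not weak, on the array with 12.5 dpc in Cy5 (circles), in Cy3 (squares) and by the path through 13.5 dpc on the other 4 arrays (diamonds). The path value lies near the arrays for most genes, and far below them for Snorc and Comp.

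Further genes called higher belong to no list, and those given here were chosen after their values were seen. Hp, haptoglobin, had 2.35 and 3.43. S100a9, a subunit of the myeloid protein calprotectin, had 2.22 and 3.12, and the acute-phase proteins Saa1 and Saa2 had 1.79 and 2.06 and 2.34 and 2.29. Thbd, thrombomodulin, had 2.58 and 2.68, and Anxa1, an annexin that dampens inflammation, had 2.11 and 2.74. Beside these, none of 16 measured macrophage markers was called, where 0.426% of all genes were called higher and 0.144% lower. None of the marker lists was made for granulocytes. The means of the macrophage markers ran from -0.45 to 0.64. Their median was 0.03, or -0.26 over the 9 that were not weak, and the complement gene C1qa had -0.49 and -0.28. The part of other cells in these values was not tested. Scin, which severs actin, had 3.12 and 3.43, and Mmp9, a gelatinase, had 1.83 and 2.30 over 11 spots and was the called member of 24 measured proteases and inhibitors.

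The largest decrease was that of Prim2, a subunit of the DNA primase, with -3.87 and -4.01 and -4.29 by the path through 13.5 dpc. This 15.3-fold difference rests on 1 spot, and Prim2 is not in the list of cell cycle and replication genes. None of the 37 measured genes of that list was called, where 0.426% of all genes were called higher and 0.144% lower. In the list 2 were above and 23 below 0 on both arrays, beside 34.4% and 37.3% of all genes. The list median was -0.19, or 0.35 without centring. Hells, a chromatin remodeller of dividing cells, had -1.21 and -0.82, Pcna, the replication clamp, had -0.48 and -0.95 over 10 spots, and Mki67 had -0.02 and -0.32. Csrp1, a LIM domain protein, had -2.87 and -2.62, and Tmsb10, which binds actin monomers, had -1.92 and -2.05. Rbm45, an RNA-binding protein, had -2.10 ± 0.10, and Dpyd, the first enzyme of pyrimidine breakdown, had -2.18 and -1.98. Slitrk6, a neuronal membrane protein, had -2.01 and -2.62, Lratd1 had -2.50 and -1.88, and the chemokine Ccl21c had -1.67 and -2.59. The path through 13.5 dpc, which the call did not use, passed 3-fold for 26 of the 27 genes called lower.

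Patterning genes of the limb bud lay more often below than above 0. Of 36 measured patterning and progenitor factors 0 were called higher and 1 lower, 10 were above and 21 below 0 on both arrays, beside 34.4% and 37.3% of all genes, and the median was -0.60, and -0.06 without centring. Isl1, a LIM homeodomain factor of hind limb initiation, was called lower with -1.72 and -1.73 over 10 spots. Msx2 and Msx1, homeodomain factors of limb mesenchyme, had -1.42 and -1.52 and -0.83 and -1.44. Lhx2 and Lhx9, LIM factors of the distal bud, had -1.28 and -1.31 and -0.75 and -1.27, and the T-box factors Tbx18 and Tbx3 had -1.47 and -1.06 and -0.64 and -1.58. Dlx5 and Dlx6, which promote skeletal differentiation, were among the 10 above 0, with 1.10 and 1.16 and 1.17 and 0.84. So were Irx3, with 0.43 and 0.97, and En1, with 0.88 and 1.19 on spots that were all weak. Pitx1, a determinant of hind limb identity, had 0.65 on the Cy5 array and -2.26 on the Cy3 array, a mean of -0.81 ± 1.45, and the path through 13.5 dpc gave -0.84. Mab21l1, an embryonic patterning gene, and Tmem26, a membrane protein, were called lower outside the list, with -2.63 and -2.29 and -2.69 and -2.53.

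Hox genes were often on weak spots. Of 33 measured, 12 were weak and 1 was called lower. On both arrays 5 were above and 14 below 0, and for 14 the arrays differed in sign. The share below 0 was close to the 37.3% of all genes, while the share above 0 was smaller than their 34.4%. Hoxd4 was the called gene, with -2.22 and -1.64. Next to it Hoxd11 had -1.81 and -1.32, Hoxc6 had -1.49 and -1.39, Hoxa10 had -1.36 and -0.98 and Hoxd10 had -1.52 and -0.72. The median of the list was -0.07, or 0.47 without centring, and -0.36 over the 21 that were not weak. Growth factor genes gave a further contrast: Igf1 had -2.09 and -1.51 over 11 spots, just short of the threshold on the Cy3 array, whereas its binding protein Igfbp7 had 1.80 and 1.53.

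Globin genes were among those called lower at 12.5 dpc. Of 10 measured erythroid markers 2 were called lower and 0 higher, 9 were below 0 on both arrays, and the median was -1.17, and -0.63 without centring. Hbb-bh1 and Hba-x, embryonic globins of primitive red cells, had -2.58 and -2.67 and -2.03 and -2.16, while Hba-a1, the adult alpha globin, had -0.62 and -0.54. Alas2, the first enzyme of haem synthesis in red cells, had -1.81 and -1.48, and the anion exchanger Slc4a1 had -1.49 and -1.15. Kel, a red cell surface protein, Car2, a carbonic anhydrase, and Tmem14c, a mitochondrial protein of haem synthesis, were called lower outside the list, with -2.11 and -1.95, -1.62 and -1.99, and -2.60 and -2.46. The part of red cells in the other decreases was not tested. In the next interval Hbb-bh1 had a mean ratio of -2.81 and Tmem14c one of 2.80.

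Skeletal muscle genes did not reach the threshold. None of the 28 measured was called, 22 were above 0 on both arrays and 1 below, against 34.4% and 37.3% of all genes, and the median was 0.69. The range of their means was -0.31 to 1.79. Myh3, the embryonic myosin, had 1.37 and 1.93, the troponin Tnni2 had 1.25 and 1.50, and Myog, the factor of muscle differentiation, had 0.98 and 0.77 over 10 spots. Endothelial markers lay on the other side, with 4 of 18 above and 11 below 0 on both arrays and a median of -0.35, or 0.19 without centring. Sox18, an endothelial transcription factor, had -1.38 and -1.14 and Emcn, an endothelial sialomucin, had -1.05 and -0.91. Ectoderm, Schwann cell and pericyte markers had medians of 0.22, 0.27 and 0.44, and none of their genes was called. Over the genes that were not weak these medians were 0.03, 0.05 and 0.44. The Schwann cell markers had medians of 0.17 on the Cy5 array and -0.19 on the Cy3 array. The part of muscle and vessel cells in the other differences was not tested.

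**Figure D4:**
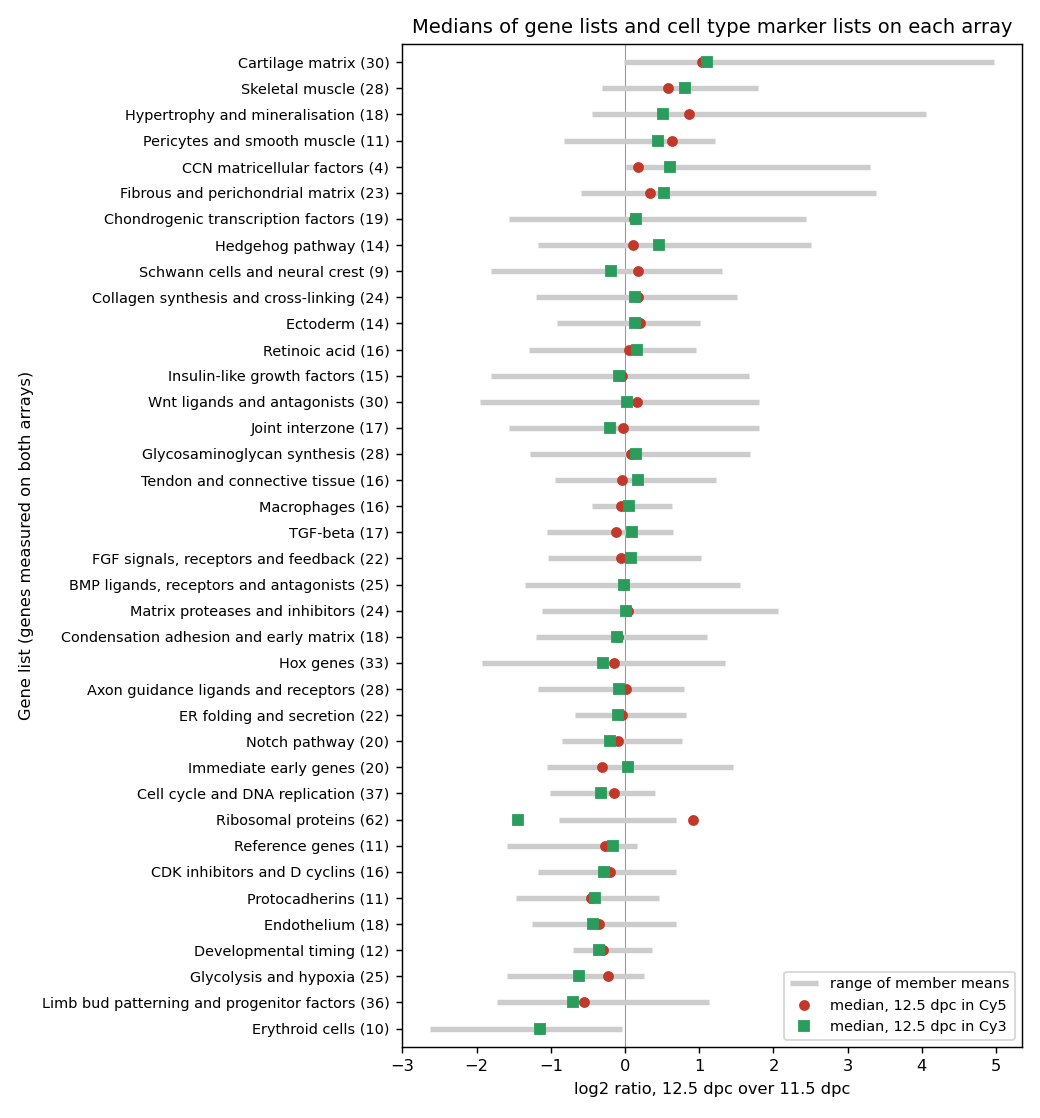
Median log2 ratio of 12.5 dpc over 11.5 dpc of each gene list and cell type marker list on the array with 12.5 dpc in Cy5 (circles) and in Cy3 (squares), with the number of genes measured in brackets and grey bars from the lowest to the highest member mean. Cartilage matrix has the highest median and erythroid cells the lowest, and the ribosomal proteins have medians of 0.92 and -1.45 on the arrays.

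Ribosomal protein genes changed sign with the dye. Of 62 measured, 55 had opposite signs on the arrays, with a median of 0.92 on the Cy5 array and -1.45 on the Cy3 array. Passing 3-fold with opposite signs was seen for 32 genes, of which 18 carry Rpl or Rps symbols, and 30 of the 32 were higher on the Cy5 array. Those with the widest gaps were COX2, a mitochondrial respiratory subunit, with 2.50 and -2.81, Rplp1 with 3.34 and -1.96, Rps27 with 2.75 and -2.50, Rps23 with 2.57 and -2.64, and Nmur2, a receptor with a weak spot, with -2.73 and 2.45. Igf2, the fetal growth factor, had 0.16 ± 2.16 over 11 spots, positive on the Cy5 array and negative on the Cy3 array. The arrays gave these genes no shared direction. Glycolytic genes held both kinds: Pgk1 had 0.86 and -1.72 over 11 spots and Ldha 0.47 and -1.43, but Gapdh had -1.11 and -2.06 and Hif1a, the oxygen-sensing factor, had -1.72 and -1.09. The median of the 25 measured glycolysis and hypoxia genes was -0.44, or 0.10 without centring.

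Weak genes called higher looked different from the rest. Among the 21 were the olfactory and vomeronasal receptors Olfr871, Olfr307 and Vmn1r210, the cone opsin Opn1mw and the meiotic factor Prdm9. Of these, 12 shared their value on the Cy3 array with another gene of the group, and 4 had the same value, 2.645, a single step of the small-number ratios. Genes not marked weak could hold such a Cy3 value too: S100b had 2.645, and Dusp10 had 2.452, the value of Prdm9. Tmigd1, a membrane protein, had 1.60 and 3.82, Enkur, a protein of cilia, had 1.74 and 3.45, and Slc17a1, a kidney phosphate transporter, had 1.72 and 3.35. By the path through 13.5 dpc, 3 of the 13 weak genes with a value passed 3-fold, and their median was 0.91, against 51 of 58 and a median of 2.43 for the others called higher. The 3 weak genes called lower, Cyp4b1, Six4 and Ms4a6b, all passed by that path too, and Six4, a factor of muscle precursors, had -1.90 and -1.63 over its spots.

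The path through 13.5 dpc also separated genes whose arrays had agreed closely. Cpa6, a carboxypeptidase, was called higher with 1.66 and 1.62 and had 4.45 by the path, and Adcy8, an adenylyl cyclase, had 1.93 and 1.73 against 0.70 by the path. Acan had 1.37 and Smpd3 1.01 by the path, below 3-fold. For these genes the distance between the dye-swapped arrays was smaller than their distance from other hybridisations of the same pools.

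The next interval, 13.5 over 12.5 dpc, was read from 2 other arrays and shares the 12.5 dpc pool with this one, so that an error in that pool would act on both with opposite signs. Side by side, Hapln1 had 4.97 ± 0.35 here and a mean of 3.07 in the next interval, Panx3 had 4.05 ± 0.47 and then 5.12 and 4.89 on the arrays of the next interval, and Lum had 3.38 ± 0.04 and 2.44. These genes had positive values in both intervals. Others had negative means next: Tafa4 had 4.26 ± 1.26 here and -2.26 next, Fgf5 had 4.11 ± 0.99 and -1.31, S100a9 had 2.67 ± 0.45 and -2.46, Gdpd3, a lysophospholipase, had 2.58 ± 0.07 and -1.73, and Dusp10, a MAP kinase phosphatase, had 2.11 ± 0.35 and -1.67. Of these next values, those of Tafa4 and S100a9 passed 3-fold on both arrays and those of Fgf5, Gdpd3 and Dusp10 did not. Among the genes called lower, Prim2 had -3.94 ± 0.07 here and 3.23 next and Tmem14c had -2.53 ± 0.07 and 2.80. Rspo2 had -3.33 ± 0.07 and -0.83, and Mab21l1 had -2.46 ± 0.17 and -1.90.

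**Figure D5:**
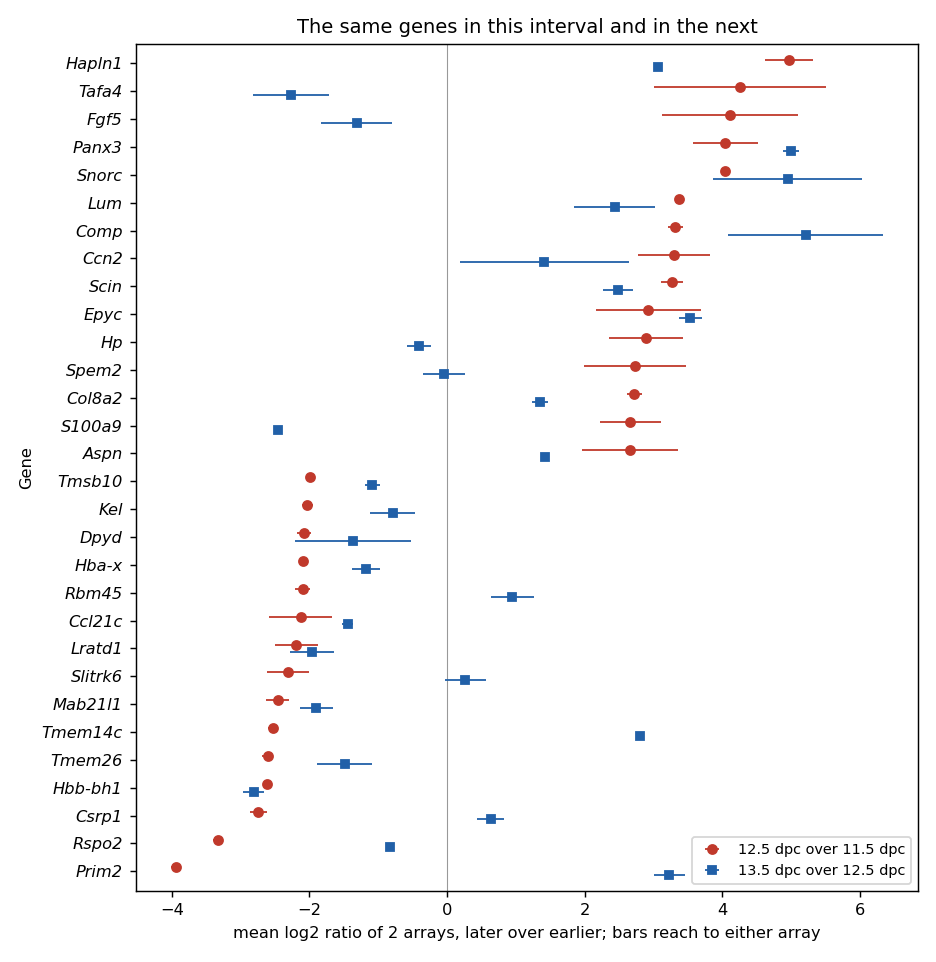
Mean log2 ratio of 2 arrays for the same 30 genes in this interval (12.5 dpc over 11.5 dpc, circles) and the next (13.5 dpc over 12.5 dpc, squares), with bars reaching to either array. Tafa4, Fgf5 and S100a9 have positive values here and negative ones next, and Prim2 and Tmem14c the reverse.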

How the data were processed

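The 2 arrays of the comparison are 2-colour Agilent whole genome arrays. The authors quantified the spots with GenePix and deposited log2 ratios of Cy5 over Cy3 for 45220 spots. The methods describe a print-tip loess step, which the values do not show: the deposited columns have medians of 0.72 and -0.35. Intensities were not used here, and the depth behind a ratio is unknown.

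Absolute values above 16 (49 and 39 spots) were dropped. The median of each column was subtracted, and the sign was set to 12.5 over 11.5 dpc by the dyes in the labels. The platform annotation gave 33653 spots 1 symbol, 56 several and 11511 none, and a gene is the mean of its spots. The weak mark asks for a value within 0.0006 of the log2 of a whole-number ratio (numbers up to 12). The path through 13.5 dpc is the ratio 13.5 over 11.5 dpc minus 13.5 over 12.5 dpc.

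Named genes are the 15 largest called differences in each direction among genes not weak, the 8 largest among weak genes, the 5 widest gaps among genes past 3-fold in opposite directions, and list members. Not every such gene is printed, other genes were named after their values were seen, and provisional names are only counted. The 31 gene lists, 7 marker lists and the comparison itself were chosen with earlier results of these data known. Scripts ran in Python 3.11.15 with numpy 2.4.6 and pandas 2.3.3 and were tested on simulated data. Alternatives changed centring, scaling, weak spots, the combining of spots, dye bias, arrays and thresholds.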

Additional observations from a re-analysis of the deposited data

Results flagged for a closer look

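Spots without exactly 1 gene symbol lie outside every value above. Of 10437 such spots with values on both arrays, 83 differed at least 3-fold in one direction on both (56 higher and 27 lower at 12.5 dpc), and 31 of the 83 were weak. This share, 0.795%, stood beside 0.751% of the 32749 spots with 1 symbol. These spots have no gene name here and were left out of every count of genes.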

How the results depend on the processing

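The number of genes called higher, 80, and lower, 27, moved with the scale and the rule. It was 478 and 7 without centring, 135 and 15 when centred on spots not marked weak, 180 and 55 in a least squares fit of all 6 arrays, 374 and 127 by the path through 13.5 dpc alone, 475 and 203 at 2-fold, 32 and 9 at 4-fold, and 263 and 51 for 3-fold on the mean of the arrays. Scaling the arrays to one spread gave 47 higher, and taking the spot with the smallest distance between the arrays gave 53 lower. A single array, with the other left out, gave 348 to 637 higher and 95 to 139 lower. The other alternatives stayed within 1.5 times, and genes with one direction numbered 11106 to 15309 in all 9 alternatives. Of the 80 and 27 genes, 64 and 27 were called in the fit of all 6 arrays. No called gene named here changed sign under any of the 13 alternatives. The call already asks for 3-fold in one direction on both arrays. Reading a single array or shifting the scale could therefore hardly turn a sign, and no support is drawn from this. No paired analysis was possible because the comparison has no test. With 1 pool per stage, differences between embryos or dissections are not covered by any value.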

Other observations

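Of the 31 gene lists, 21 held no called gene, and their medians ran from -0.44 to 0.22. Within them, single genes had one direction on both arrays but stayed short of 3-fold on at least 1 of them. Csgalnact1, which starts chondroitin sulfate chains, had 1.44 on the Cy5 array and 1.93 on the Cy3 array, and Klf4, a Kruppel-like transcription factor, had 1.18 and 1.35. The retinoic acid binding protein Crabp2 had -1.26 and -1.32, and Cyp26b1, which breaks retinoic acid down, had -0.89 and -1.26. Pcdh8, a protocadherin of early mesoderm, had -1.58 and -1.36. Of the 12 measured genes of developmental timing, 1 was above and 8 below 0 on both arrays, with a median of -0.37, or 0.17 without centring, and Igf2bp3, an RNA-binding protein of embryonic cells, had -0.80 and -0.60.

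The scale of the 11 measured reference genes was itself uneven. Their median was -0.23, or 0.31 without centring. Hprt had 0.02 and -0.03 and B2m had -0.17 and 0.15, while Ppia, a peptidyl-prolyl isomerase, had -0.70 and -1.04 and Tfrc, the transferrin receptor, had -1.31 and -0.97.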
